A study of Mus musculus with 6 samples.

Results

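The genes of the proteasome were followed in the livers of WT and Vps15LKO mice. Members were the protein-coding genes whose symbols start with Psma to Psmg followed by a number, 50 of the 56305 genes in the table. They were sorted by known role into 31 constitutive subunits of the 26S proteasome, 3 catalytic subunits of the immunoproteasome, 6 activators and inhibitors, 7 assembly chaperones, 2 subunits restricted to other tissues, and Psmc3ip, a factor of meiotic recombination that shares only the start of its symbol. A further 4 pseudogenes with matching symbols were left out.

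The data are RNA-Seq libraries of 3 WT and 3 Vps15LKO livers, each from a different male mouse of 5 weeks with free access to food, collected at ZT6 (6 h after lights on). Vps15LKO mice carry floxed alleles of Vps15 (AlbCre+;Vps15f/f), which encodes the regulatory subunit of the class 3 PI3K. The albumin promoter drives Cre in hepatocytes, and whether other cells of the liver kept the gene was not measured here. The methods do not say for these libraries whether the WT mice carried floxed alleles. The values are normalized counts, the reads on a gene divided by the size factor that DESeq2 gave its library. Genes that reached 20 normalized counts in 3 or more livers were tested with limma on log2(normalized count + 1), and calls needed an adjusted p below 0.05 together with a fold of 1.2 or more. Fold changes are Vps15LKO over WT on this scale.

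The proteasome is the protease that degrades proteins tagged with ubiquitin. Its 20S core is a barrel of outer α rings and inner β rings with the proteolytic sites inside, and the 19S cap carries the receptors for ubiquitin, the enzyme that removes it and a ring of ATPases that unfolds substrates and feeds them into the core. Cells exposed to interferon, and cells of the immune system at rest, replace the catalytic β subunits with Psmb8, Psmb9 and Psmb10, and this immunoproteasome yields peptides suited to display on MHC class I. In the liver the proteasome also sets the lifetime of many metabolic enzymes and of clock proteins.

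Promoter sequence is shown for 4 members that went different ways between genotypes, so that it can be set beside their transcript levels below. Psmb5 did not pass the test in a complex most of whose other genes were called lower, Psmb10 was called higher as an immunoproteasome gene, and Psmd8 and Psmd6 were the constitutive subunits with the largest rise and the largest fall. The stretches are RefSeq promoter windows (GRCm38.p6), which start 250 bases before the annotated start and were ended before the first base that any transcript of GENCODE M21 covers. They are read 5′ to 3′ on the strand of the gene, all of them on the minus strand. Capitals mark a match to 1 of 4 motifs searched on both strands: TGACNNNGC (core of the antioxidant response element, read by Nfe2l1 and Nfe2l2) in Psmb5, CACGTG (the E-box, read by Bmal1 and Clock) in Psmb10, and AANNGAAA (core of the sites of interferon regulatory factors) in Psmd6 and, as its reverse complement, in Psmd8.
Psmb5, chr14:54618023-54618245: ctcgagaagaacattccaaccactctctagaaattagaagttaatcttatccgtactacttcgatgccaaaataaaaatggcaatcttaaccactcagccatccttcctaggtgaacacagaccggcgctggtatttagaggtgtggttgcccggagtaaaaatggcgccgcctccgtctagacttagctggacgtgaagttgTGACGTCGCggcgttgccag
Psmb10, chr8:105938445-105938642: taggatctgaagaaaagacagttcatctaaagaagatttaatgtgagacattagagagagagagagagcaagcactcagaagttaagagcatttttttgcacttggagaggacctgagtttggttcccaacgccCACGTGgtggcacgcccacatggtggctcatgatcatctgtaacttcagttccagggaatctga
Psmd8, chr7:29180702-29180923: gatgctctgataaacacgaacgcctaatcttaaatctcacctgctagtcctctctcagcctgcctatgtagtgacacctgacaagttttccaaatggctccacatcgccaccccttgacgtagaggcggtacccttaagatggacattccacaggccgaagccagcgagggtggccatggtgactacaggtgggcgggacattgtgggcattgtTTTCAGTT
Psmd6, chr14:14120985-14121195: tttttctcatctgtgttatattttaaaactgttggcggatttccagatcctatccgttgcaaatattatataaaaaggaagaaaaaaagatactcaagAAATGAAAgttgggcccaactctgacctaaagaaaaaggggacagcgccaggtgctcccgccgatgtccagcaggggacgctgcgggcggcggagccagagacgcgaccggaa

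The libraries held between 16137093 and 18110223 reads on genes. WT libraries had size factors of 0.742 to 0.801 and Vps15LKO libraries of 1.23 to 1.41, so the scaling bears on every level given here. Scaling every library to the same total of reads instead shifted all 15430 genes tested upward, their median log2 fold change of −0.02 by 0.72, and the directions that turn under it are given with the results. Pik3r4, the gene of Vps15, had 508, 573 and 460 normalized counts in WT livers and 341, 362 and 355 in Vps15LKO livers, with a log2 fold change of −0.54 (SE 0.11, limma adjusted p = 0.00207), and 0.19 with equal read totals. Of the hepatocyte markers, 9 of 11 were called lower, against 33.0% of all genes, and their summed level lay between 3193524 and 3532883 normalized counts in WT livers, against 988042 to 1464327 in Vps15LKO livers. The summed level of 15 macrophage markers was 9406 to 11394 in WT and 34270 to 38684 in Vps15LKO livers, and that of 15 lymphocyte markers was 294 to 438 and 1203 to 1321, with no marker at 0 in all libraries. In tissue RNA, fewer cells of a type and less RNA per cell cannot be told apart. With 3 livers against 3, an exact permutation test of a single value cannot give a p under 0.1.

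Of the 50 members, 48 passed the filter, each with at least 20 normalized counts in all 6 livers, and 33 of them were called lower and 6 higher in Vps15LKO livers, against 33.0% of all genes tested called lower and 33.5% called higher. The median log2 fold change of the 48 members was −0.41, beside −0.02 over all genes tested. The 6 called higher were the immunoproteasome genes Psmb8, Psmb9 and Psmb10, the 19S subunit Psmd8, and the chaperones Psmd10 and Psmg4. Values of the genotypes did not overlap, in the lower direction, for 34 members against 36.8% of all genes, and in the higher direction for 7 members against 36.4%. With equal read totals none of the 48 was called lower and 29 were called higher, against 11.1% and 66.7% of all genes. Only Psmd6 was lower there at a limma adjusted p under 0.05 (−0.22, limma adjusted p = 0.0491), short of the fold threshold. The members' median log2 fold change was then 0.31, beside 0.70 over all genes. Equal totals move all genes by a like amount, so the distance of the members to the median of all genes could hardly change under them. The members lay below that median by 0.40 with the DESeq2 size factors and by 0.39 with equal totals. With quantile normalization that distance was 0.05, and 17 members were called lower and 6 higher, against 37.6% and 30.4% of all genes, a share of lower calls near the background. Upper-quartile scaling left 27 members called lower, against 27.5% of all genes, and a fold of at least 1.5 left 12, against 23.1%.

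The level of the gene bears on this background. The means of the 31 constitutive subunits lay between 583 and 4566 normalized counts, and of the 4163 genes tested in that range, a background chosen after the values were seen, 49.9% were called lower and their median log2 fold change was −0.28. As a share of the reads on genes, the 50 members together took 0.268%, 0.256% and 0.262% in WT livers and 0.351%, 0.339% and 0.386% in Vps15LKO livers. The share was thus higher in Vps15LKO livers with no overlap, while the 10 genes with most reads took 19.1% to 19.5% of them in WT livers, against 13.4% to 15.7% in Vps15LKO livers. Psmd8 made up part of this rise, with at most 2265 reads in a WT liver and 9584 in a Vps15LKO liver. The share of the members without Psmd8 was not taken.

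**Figure D1:**
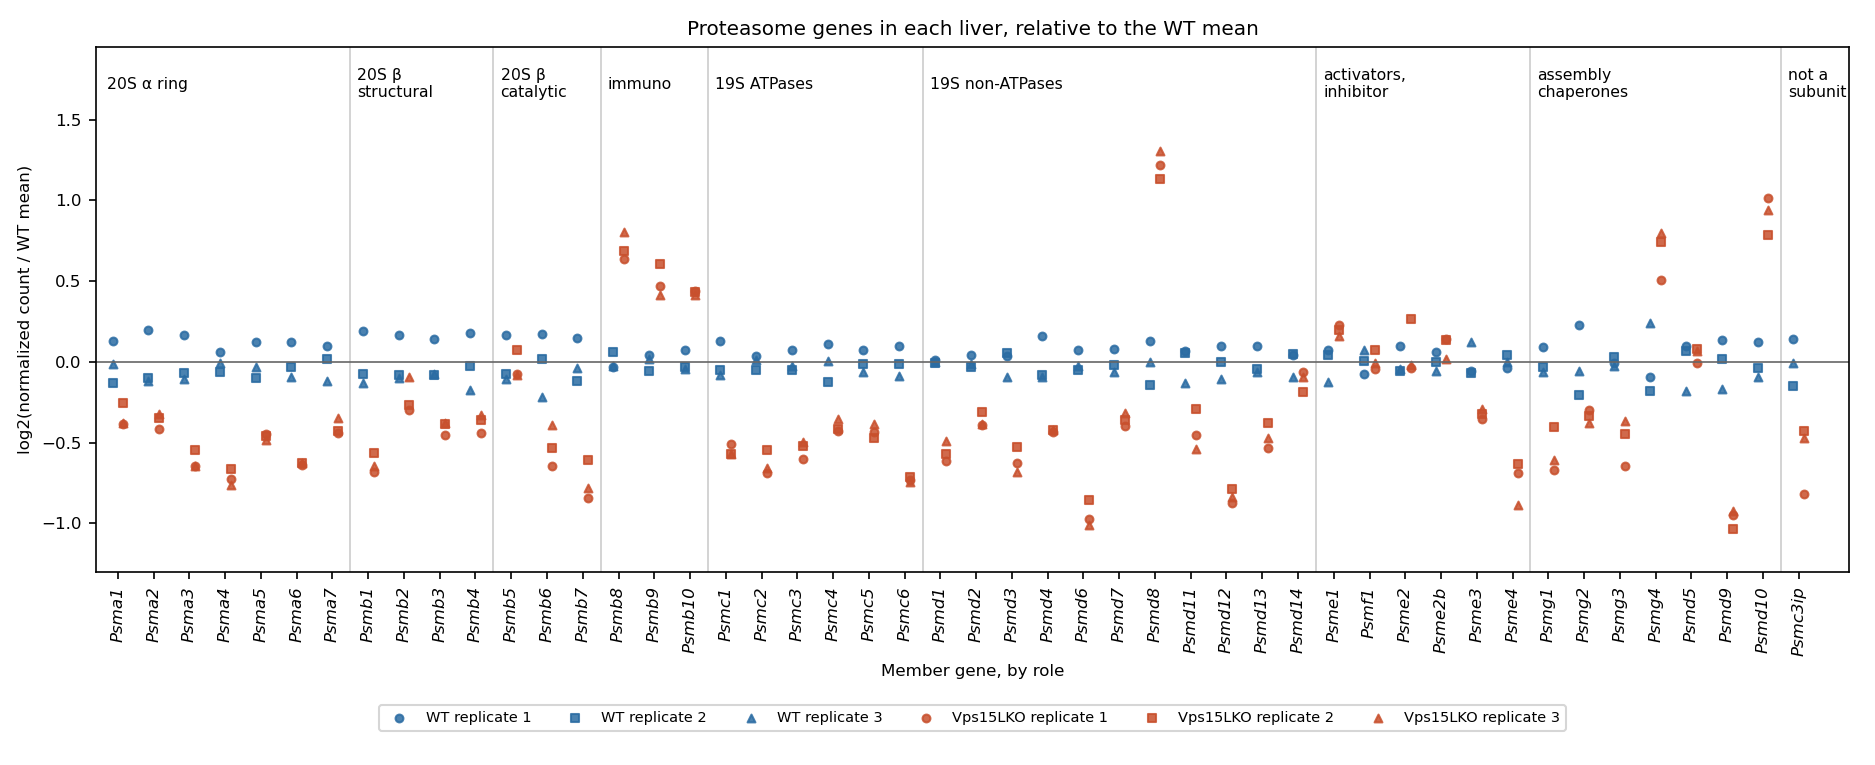
Normalized count of the 48 members that passed the filter in each of the 6 livers, on the y axis as log2 of the value over the WT mean, with members along the x axis by role. Blue points are WT and orange points Vps15LKO livers, and the symbol gives the replicate number. Most constitutive subunits lie below the line in all 3 Vps15LKO livers, and Psmb8, Psmb9, Psmb10, Psmd8, Psmd10 and Psmg4 lie above it. With equal read totals most of the subunits below the line turn to a rise.

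All 7 genes of the outer ring of the core, Psma1 to Psma7, were called lower. Of all genes tested 33.0% were called lower, and 49.9% in the range of levels of the constitutive subunits. Their log2 fold changes lay between −0.72 and −0.33, with a median of −0.46. The largest fall was that of Psma4, which had 1921, 1764 and 1832 normalized counts in WT and 1110, 1160 and 1086 in Vps15LKO livers (log2 fold change −0.72, SE 0.08, limma adjusted p = 9.91e-05). Every Vps15LKO liver lay below every WT liver for all 7 genes, against 36.8% of all genes tested. All 7 had positive log2 fold changes, between 0.01 and 0.39, with equal read totals, and 4 of them were then called higher, against 66.7% of all genes. The calls of Psma1 and Psma2 did not hold in every comparison with 1 library left out. Without Vps15LKO replicate 1 their limma adjusted p became 0.0615 and 0.0676, while their log2 fold changes stayed at −0.31 and −0.33. Without WT replicate 1 the log2 fold change of Psma2 was −0.25, under the fold threshold. Neither was called with upper-quartile scaling (−0.21 and −0.23).

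The structural β subunits Psmb1 to Psmb4 hold the inner rings together and carry no active site. Psmb1, Psmb3 and Psmb4 were called lower and Psmb2 was not, against 33.0% of all genes called lower. Psmb1 had 2571, 2137 and 2062 normalized counts in WT and 1404, 1525 and 1442 in Vps15LKO livers (log2 fold change −0.62, SE 0.11, limma adjusted p = 0.000852, and 0.10 with equal read totals). Psmb2 had 1543, 1299 and 1279 against 1115, 1141 and 1287, and the third Vps15LKO liver lay within the WT range (log2 fold change −0.22, SE 0.11, limma adjusted p = 0.105). Psmb4 was no longer called without Vps15LKO replicate 1, at a limma adjusted p of 0.0618, nor with upper-quartile scaling (−0.25). Psmb2, Psmb3 and Psmb4 were called higher with equal read totals, at 0.51, 0.32 and 0.36, against 66.7% of all genes.

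The 3 catalytic subunits of the constitutive core did not move alike. Psmb5 (ENSMUSG00000022193), which carries the chymotrypsin-like site, had 1081, 912 and 894 normalized counts in WT and 913, 1010 and 910 in Vps15LKO livers. The genotypes overlapped and Psmb5 was not called (log2 fold change −0.02, SE 0.10, limma adjusted p = 0.853), though it was called higher with equal read totals, at 0.70. Psmb6, with the caspase-like site, had 2031, 1825 and 1552 against 1155, 1243 and 1374. All 3 Vps15LKO livers lay below the WT livers (log2 fold change −0.51, SE 0.12, limma adjusted p = 0.00496), and the value turned to 0.21 with equal read totals. Psmb7, with the trypsin-like site, had 1901, 1584 and 1673 against 958, 1126 and 999 (log2 fold change −0.74, SE 0.11, limma adjusted p = 0.00031, and −0.01 with equal read totals). Per kb of exon and within the same liver, Psmb5 stood at 2.16, 2.03 and 2.03 times the median level of the other 30 constitutive subunits in WT, and at 2.69, 2.82 and 2.68 times that median in Vps15LKO livers, a description of a gene chosen after its values were seen. Some of these genes share exon bases with a neighbour. Psmb5 shares 109 bases with the microRNA gene Mir686 on the same strand, which was not called (log2 fold change −0.08), and Psmb7 shares 405 bases with Nek6 on the other strand (log2 fold change −0.19, not called). Both neighbours were called higher with equal read totals, at 0.65 and 0.54.

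All 3 catalytic subunits of the immunoproteasome were called higher in Vps15LKO livers, with no overlap between genotypes. Of all genes tested 33.5% were called higher and 36.4% had no overlap in that direction. Psmb8 (ENSMUSG00000024338), which takes the place of Psmb5, had 489, 521 and 491 normalized counts in WT and 777, 805 and 872 in Vps15LKO livers (1.63-fold, log2 fold change 0.71, SE 0.09, limma adjusted p = 0.000148). Psmb9, which takes the place of Psmb6, had 276, 257 and 271 against 372, 408 and 356 (1.41-fold, log2 fold change 0.50, SE 0.10, limma adjusted p = 0.00218). Psmb10, which takes the place of Psmb7, had 499, 462 and 460 against 643, 639 and 630 (1.35-fold, log2 fold change 0.43, SE 0.08, limma adjusted p = 0.00201). The lowest Vps15LKO liver exceeded the highest WT liver for each gene, and the 3 were called higher under each scaling tried. With equal read totals, where 66.7% of all genes were called higher, their log2 fold changes were 1.15 to 1.43. They also kept the call without any 1 library. Psmb9 and Psmb10 were under a fold of 1.5 with the DESeq2 size factors, though not with equal read totals. Psmb8 shares 498 bases of exon with the antisense gene Gm20496 (log2 fold change 0.59) and Psmb9 shares 212 bases with Tap1 on the other strand (log2 fold change 0.59), and the strand setting of the read counting is not given in the sources used here. The summed macrophage and lymphocyte markers given above were higher in the same livers, and their part in the rise of these genes was not tested.

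Ratios between genes of the same liver do not depend on the scaling of the library. For each of these 5 ratios, levels were taken per kb of exon. The ratio of Psmb8 to Psmb5 was 0.120, 0.152 and 0.146 in WT and 0.227, 0.212 and 0.255 in Vps15LKO livers, 1.66-fold higher (log2 difference 0.73, exact permutation test, two-sided, p = 0.1, adjusted p = 0.125 over the 5 ratios). The ratio of Psmb9 to Psmb6 was 0.0694, 0.0721 and 0.0893 against 0.165, 0.168 and 0.133, 2.02-fold higher (log2 difference 1.01, the same exact p). The ratio of Psmb10 to Psmb7 was 0.526, 0.585 and 0.551 against 1.35, 1.14 and 1.27, 2.25-fold higher (log2 difference 1.17, the same exact p). Every Vps15LKO liver lay above every WT liver in these 3 ratios, the smallest exact p that 3 livers against 3 allow being 0.1. The size of each ratio depends on the annotated exon lengths, which cancel between genotypes in these ratios of single genes. In the next pair of ratios, which were built from sums of genes, the lengths weight the members and do not cancel. The combined level of the activators Psme1 and Psme2 over that of Psme3 was 2.56, 2.46 and 1.995 in WT and 3.26, 3.38 and 3.04 in Vps15LKO livers, 1.39-fold higher (log2 difference 0.47, the same exact p). The ratio of the 20S outer ring to the 19S ATPases was 1.09, 1.07 and 1.06 in WT and 1.05, 1.08 and 1.04 in Vps15LKO livers. The genotypes overlapped in it (log2 difference −0.02, exact permutation p = 0.4), and leaving out 1 liver at a time kept the difference between −0.04 and −0.01.

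**Figure D2:**
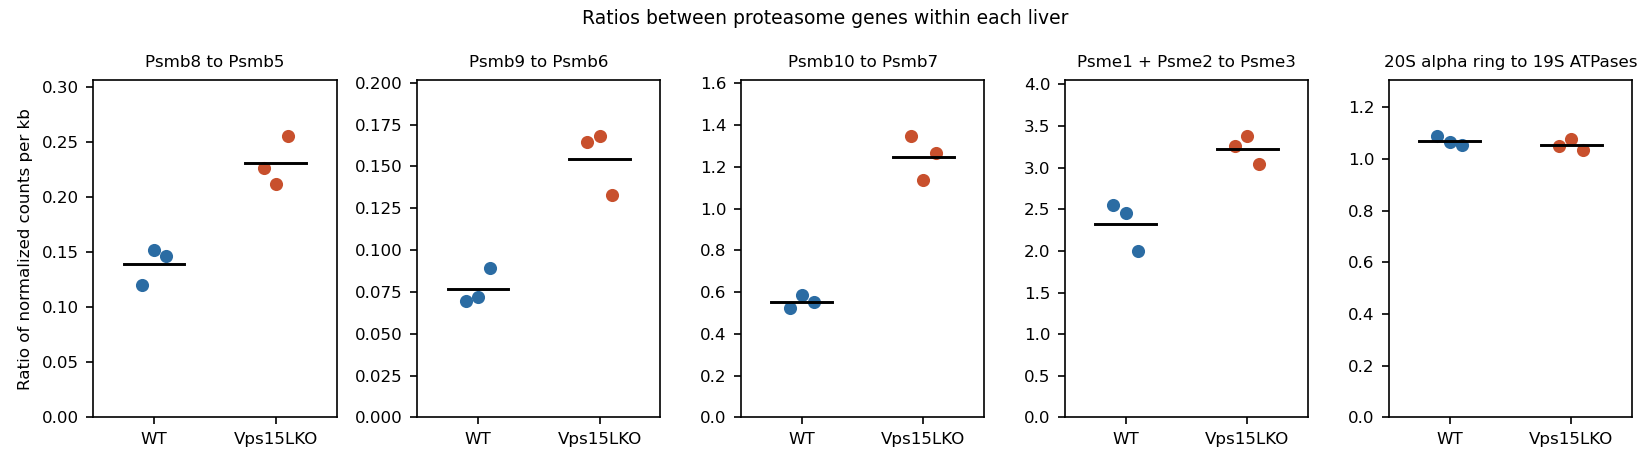
Ratios between proteasome genes within each liver, from normalized counts per kb of exon on linear y axes that start at 0, with 1 point per liver and a bar at the geometric mean of each genotype. In the first 4 panels all 3 Vps15LKO livers lie above all 3 WT livers, and in the last panel, the 20S outer ring over the 19S ATPases, the genotypes overlap.

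The 19S cap is built on the ATPase ring Psmc1 to Psmc6, and all 6 of its genes were called lower, with log2 fold changes between −0.73 and −0.40 and a median of −0.54. The share called lower was 33.0% of all genes, and 49.9% in the range of levels of the constitutive subunits. The largest fall was that of Psmc6, with 1445, 1339 and 1270 normalized counts in WT and 815, 824 and 806 in Vps15LKO livers (log2 fold change −0.73, SE 0.09, limma adjusted p = 0.000108). The Vps15LKO livers lay well under the WT livers and close to each other. The log2 fold changes of the 6 lay between −0.0009 and 0.33 with equal read totals, positive for all but Psmc6. Then 2 of them were called higher, against 66.7% of all genes.

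Of the 11 non-ATPase subunits of the cap, 9 were called lower, Psmd8 was called higher and Psmd14 was not called. Of all genes tested 33.0% were called lower and 33.5% higher, and 49.9% were lower in the range of levels of the constitutive subunits. Psmd6 (ENSMUSG00000021737), a scaffold subunit of the lid, fell most, with 996, 916 and 929 normalized counts in WT and 482, 523 and 470 in Vps15LKO livers (log2 fold change −0.95, SE 0.09, limma adjusted p = 3.18e-05). It kept a lower value with equal read totals, at −0.22, and so did the lid subunit Psmd12, at −0.10, while the other 7 called lower turned to positive values of 0.11 to 0.37. Psmd2 and Psmd7 were also not called with upper-quartile scaling, where their log2 fold changes (−0.24 and −0.23) fell short of the fold threshold. Psmd13 shares 342 bases of exon with Sirt3 on the other strand, which was called lower (−1.70). Psmd14, the enzyme that removes ubiquitin from substrates, had 623, 627 and 569 against 580, 532 and 569, and the genotypes overlapped (log2 fold change −0.11, SE 0.09, limma adjusted p = 0.292, and 0.61 with equal read totals).

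Psmd8 (ENSMUSG00000030591), another lid subunit, went the other way. It had 3003, 2484 and 2739 normalized counts in WT and 6390, 6002 and 6779 in Vps15LKO livers, 2.33-fold higher (log2 fold change 1.22, SE 0.11, limma adjusted p = 2.46e-05). The lowest Vps15LKO liver stood far above the highest WT liver, and the call held under each of the 21 alternatives tried. Per kb of exon it stood at 1.76, 1.63 and 1.83 times the median level of the other 30 constitutive subunits in WT livers and at 5.54, 4.93 and 5.87 times that median in Vps15LKO livers. Its mean level was 897 normalized counts per kb in WT and 2090 in Vps15LKO livers, the highest of all members there. In WT livers the highest means were those of Psma6, at 1148 (SD 89.4), and Psmb2, at 1141 (SD 122), which did not differ beyond their spread. Psmd8 lies on the minus strand of chr7:29174188-29180701. Of 5 other genes tested within 50 kb, Kcnk6 (1.27) was called higher. Spred3 had 5.30, 6.25 and 6.74 normalized counts in WT and 36.7, 26.7 and 55.9 in Vps15LKO livers, so it passed the filter only through the livers where it was high. Fam98c (−0.63) was called lower, and Rasgrp4 (−0.21) and the antisense gene 1110035H17Rik (−0.28) were not called. These last 3 turned to 0.09, 0.51 and 0.41 with equal read totals, and Rasgrp4 was called higher. These neighbours were looked up after the value of Psmd8 was seen. None of them shares exon bases with Psmd8.

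Across all 31 constitutive subunits, 27 were called lower, 1 higher and 3 (Psmb2, Psmb5 and Psmd14) not at all, with a median log2 fold change of −0.46. Of all genes 33.0% were called lower and 33.5% higher, and in the subunits' own range of levels 49.9% were called lower. The log2 fold changes of the 31 had an SD of 0.37. Without Psmd8, dropped after its value was seen, those of the other 30 ran from −0.95 to −0.02, with an SD of 0.20. The SD over all genes tested was 1.53, but these include genes far below the levels of the subunits. No SD was taken in the subunits' own range of levels. With equal read totals none of the 31 was called lower in limma, 17 were called higher, against 11.1% and 66.7% of all genes, and the median was 0.27, below the 0.70 of all genes. The order of levels among subunits was largely kept. Per kb of exon, the mean log2 levels of the 31 correlated between genotypes with a Pearson r of 0.91, and of 0.96 over the 30 without Psmd8, which describes genes that share exon lengths and libraries. The spread of the log2 levels per kb over the 31 had an SD of 0.69, 0.65 and 0.66 in WT livers and of 0.84, 0.82 and 0.86 in Vps15LKO livers. Most of that difference went with Psmd8, since without it the SD was 0.68, 0.65 and 0.66 in WT and 0.72, 0.71 and 0.74 in Vps15LKO livers.

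**Figure D3:**
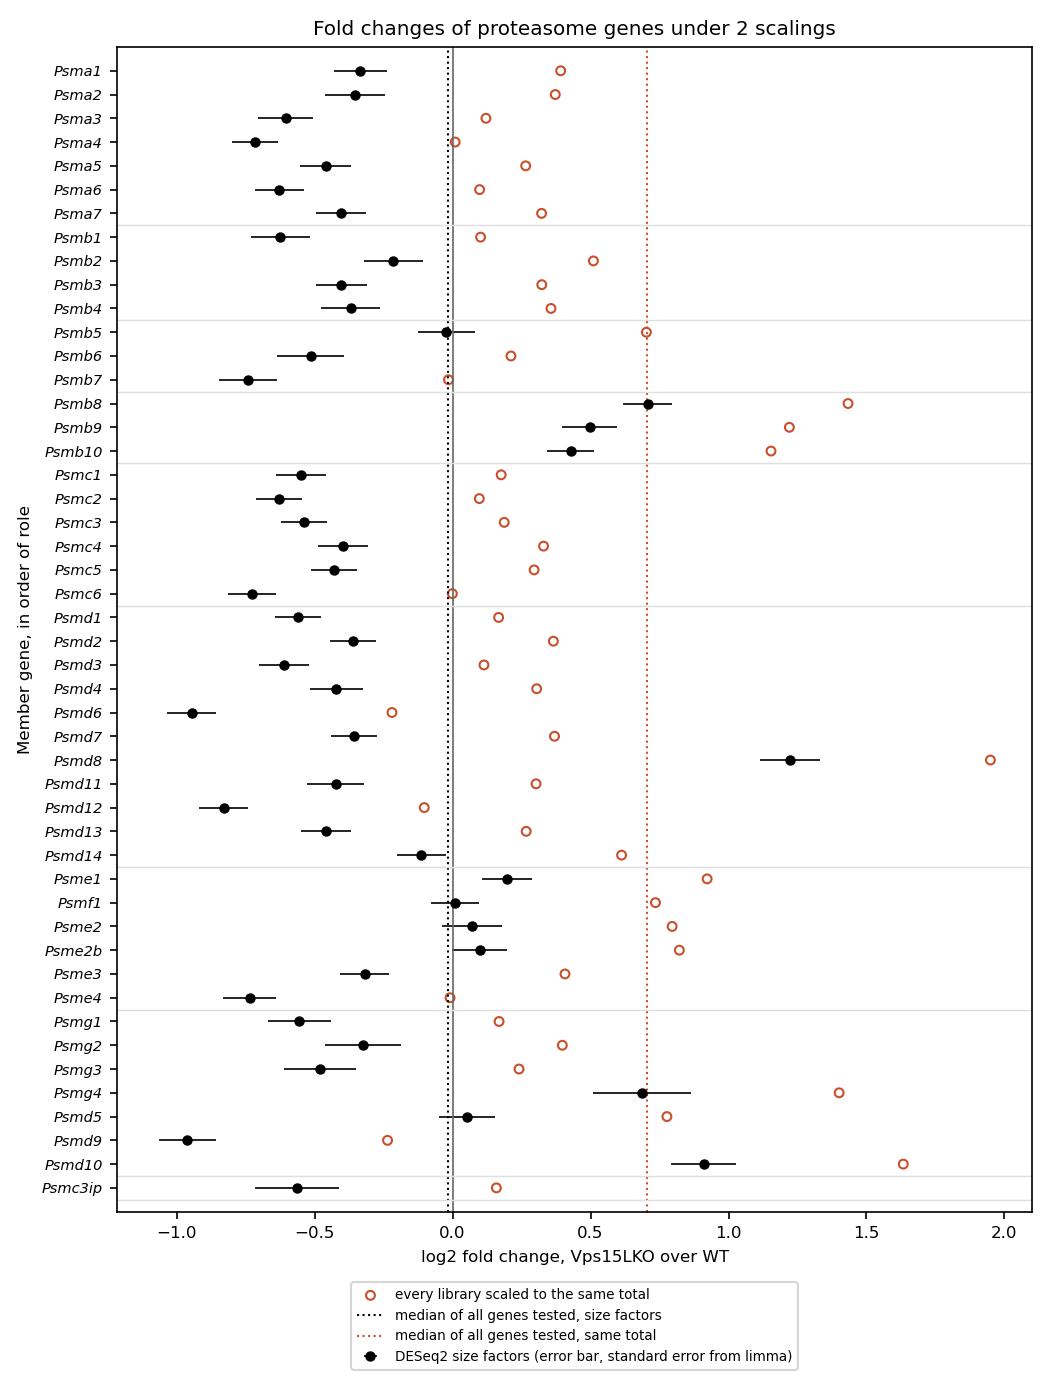
Log2 fold changes, Vps15LKO over WT, of the 48 members tested, in order of role from the 20S outer ring at the top. Black points with their standard errors from limma use the DESeq2 size factors, open circles use equal read totals, and dotted lines mark the median of all genes tested, −0.02 and 0.70. Most constitutive subunits lie left of either median, and Psmb8, Psmb9, Psmb10, Psmd8, Psmd10 and Psmg4 right of the first, while most black points below 0 have their open circle above 0.

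**Figure D4:**
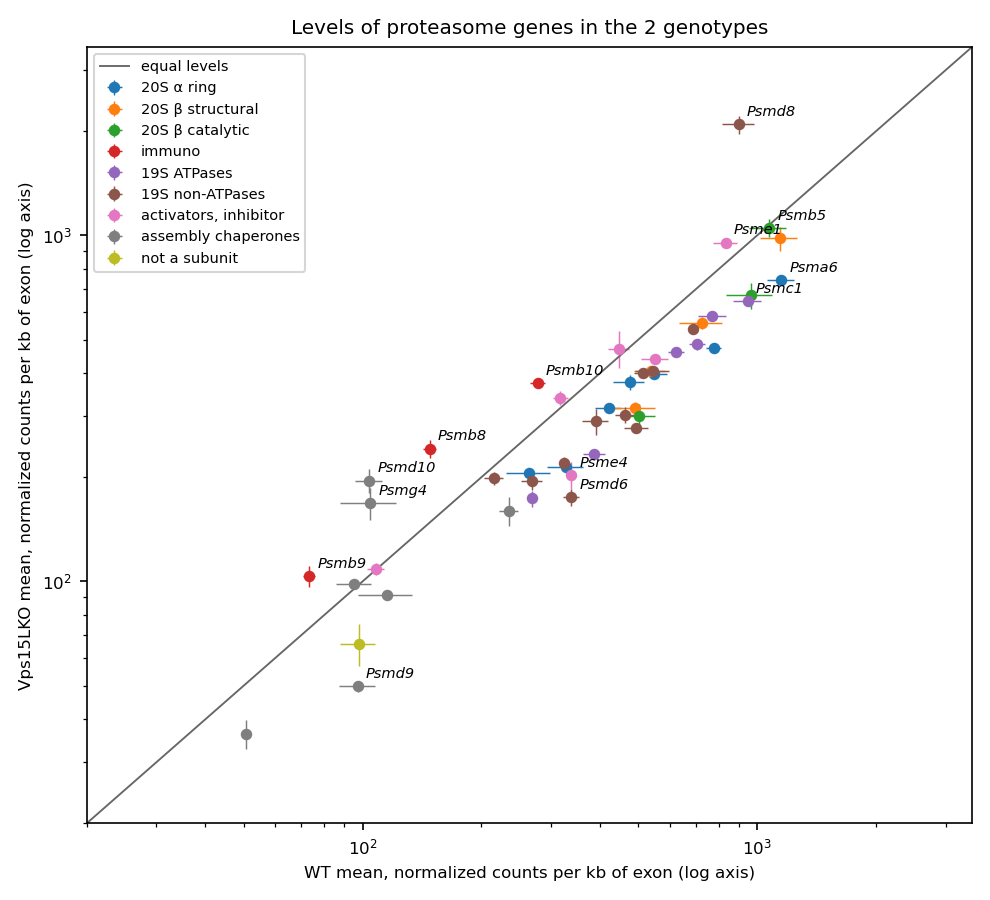
Mean level of each member tested in WT (x axis) and Vps15LKO livers (y axis), as normalized counts per kb of exon on log axes, coloured by role, with bars of 1 SD over 3 livers and the line of equal levels. Constitutive subunits lie as a band under the line, Psmd8 lies far above it, and the immunoproteasome genes lie above it at lower levels. With equal read totals most of the band moves above the line.

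Of the 6 activators and inhibitors, 2 were called lower and none higher, against 33.0% and 33.5% of all genes. With equal totals of reads 5 were called higher, against 66.7%, with a median log2 fold change of 0.77 beside 0.70 over all genes. Psme1 and Psme2 form the activator that interferon induces, Psme3 is its nuclear relative, Psme4 is a large activator linked to chromatin, and Psmf1 inhibits the core. Psme4 fell, from 2753, 2903 and 2817 normalized counts in WT to 1752, 1823 and 1526 in Vps15LKO livers (log2 fold change −0.74, SE 0.10, limma adjusted p = 0.000202, and −0.01 with equal read totals). Psme3 was called lower at −0.32 (limma adjusted p = 0.0121), but not without Vps15LKO replicate 1, without WT replicate 3 or with upper-quartile scaling, and it was called higher with equal read totals, at 0.41. Psme1 had 1929, 1895 and 1686 normalized counts in WT and 2153, 2101 and 2050 in Vps15LKO livers. The groups did not overlap, yet the difference missed the threshold (log2 fold change 0.20, SE 0.09, limma adjusted p = 0.084), and it was called higher with upper-quartile scaling (0.32), quantile normalization (0.62) and equal read totals (0.92). Psme2 had 842, 757 and 764 against 767, 947 and 776, which overlapped, with the highest value in Vps15LKO replicate 2 (log2 fold change 0.07, limma adjusted p = 0.59). Psme2b is a near copy of Psme2 whose reads the counting could have split, and its log2 fold change of 0.10 is uncertain for that reason. Psmf1 was at 0.01 (limma adjusted p = 0.93). Equal read totals brought Psme2, Psme2b and Psmf1 to 0.80, 0.82 and 0.74, all called higher.

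Of the 7 assembly chaperones, 3 were called lower and 2 higher, against 33.0% and 33.5% of all genes. With equal read totals 4 were called higher, against 66.7%. Psmd9, Psmd10 and Psmd5 escort the ATPases during assembly of the cap, and Psmg1 to Psmg4 build the outer ring of the core. Psmd9 had 773, 713 and 628 normalized counts in WT and 366, 344 and 371 in Vps15LKO livers, the largest fall of all members (log2 fold change −0.96, SE 0.10, limma adjusted p = 6.73e-05, and −0.24 with equal read totals). Psmd10, also known as gankyrin, had 166, 149 and 143 against 308, 263 and 292 (1.88-fold, log2 fold change 0.91, SE 0.12, limma adjusted p = 0.000183). Both genes separated the genotypes with no overlap, in opposite directions. Psmg4 was called higher, at a low level of 54, 51 and 69 normalized counts in WT and 82, 97 and 101 in Vps15LKO livers (log2 fold change 0.68, SE 0.18, limma adjusted p = 0.00833), but not with quantile normalization (0.16). Psmg1 (−0.56) and Psmg3 (−0.48) were called lower, the latter not without Vps15LKO replicate 1, and both were positive with equal read totals. Psmg3 shares 280 bases of exon with Gm26938 on the same strand, which was called lower too (−0.71, and 0.01 with equal read totals). Psmg2 (−0.32, limma adjusted p = 0.0636) and Psmd5 (0.05) were not called, and with equal read totals both were called higher, at 0.40 and 0.78.

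The remaining members are no part of the liver proteasome. Psma8, an α subunit of the testis, had 4, 16 and 19 normalized counts in WT and 8, 11 and 12 in Vps15LKO livers. Psmb11, the β subunit of the thymic cortex, had no read in 5 livers and 1 read in Vps15LKO replicate 3. Both fell under the filter and were not tested. Psmc3ip had 196, 160 and 177 normalized counts in WT and 101, 132 and 128 in Vps15LKO livers (log2 fold change −0.56, SE 0.15, limma adjusted p = 0.00992, and 0.16 with equal read totals), and 385 bases of its exons are shared with Mlx on the other strand (−0.77).

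Genes that work beside the proteasome were described from 5 lists. Of 10 partners that join, deubiquitinate or assemble it, 7 were called lower and none higher, against 33.0% and 33.5% of all genes, with a median log2 fold change of −0.50 beside −0.02 over all genes. Equal read totals left none called lower in limma and 5 higher, against 11.1% and 66.7%, with a median of 0.23 beside 0.70. The ubiquitin ligase Ube3c, which rides on the proteasome, fell most, from 961, 1047 and 903 normalized counts in WT to 552, 657 and 507 in Vps15LKO livers (log2 fold change −0.77, SE 0.12, limma adjusted p = 0.00045, and −0.04 with equal read totals). Pomp, which guides assembly of the core and was picked after its value was seen, was called lower at −0.65, and stood at 0.08 with equal read totals. Of 10 ubiquitin shuttles and parts of the Vcp segregase, which bring substrates to the proteasome, 7 were called lower and 1 higher, against the same 33.0% and 33.5%, with a median of −0.45. Here too equal read totals left none called lower in limma and 5 higher, with a median of 0.27 beside the 0.70 of all genes. The segregase cofactor Nploc4 fell most (−0.70, and 0.03 with equal read totals). The shuttle Ubqln2 rose, from 733, 806 and 700 to 1847, 1538 and 2083 normalized counts (log2 fold change 1.28, SE 0.12, limma adjusted p = 3.73e-05). Of the 6 genes for ubiquitin and its activating enzymes none was called lower and 2 were higher, against 33.0% and 33.5% of all genes. The higher calls were thus near the background. The median was 0.15, and the largest rise was that of the activating enzyme Uba6 (0.75). All 6 were called higher with equal read totals (median 0.88) and with quantile normalization (median 0.73), against 66.7% and 30.4% of all genes.

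Of 11 regulators of proteasome genes, 4 were called lower and 3 higher, near the shares of all genes (33.0% and 33.5%), with a median log2 fold change of 0.11. Equal read totals gave 1 lower and 9 higher, against 11.1% and 66.7% of all genes, with a median of 0.84 beside 0.70. Ddi2, the protease that releases Nfe2l1 from its membrane-bound form, had 4942, 5726 and 5645 normalized counts in WT and 2237, 2395 and 1773 in Vps15LKO livers (log2 fold change −1.36, SE 0.13, limma adjusted p = 3.92e-05), and it stayed lower with equal read totals, at −0.63. Maff, a small partner of Nfe2l1 and Nfe2l2, had 232, 151 and 65 against 619, 492 and 622 (log2 fold change 2.12, SE 0.39, limma adjusted p = 0.00131). The genotypes of neither gene overlapped, and the WT livers varied most for Maff. Picked after their values were seen, Nfe2l1, the factor that drives subunit genes when the proteasome is short, was at −0.30 (limma adjusted p = 0.0251), Ngly1, which removes its sugars, at −0.84, and Nfe2l2 at 0.63. The call of Nfe2l1 held under 10 of the 21 alternatives. It was lost with edgeR (−0.26), limma voom (−0.25) and upper-quartile scaling (−0.18), and the value turned to 0.15 with quantile normalization and to 0.43 with equal read totals. It was also lost without WT replicate 1, WT replicate 2, Vps15LKO replicate 1 or Vps15LKO replicate 3 (limma adjusted p between 0.0623 and 0.0874). Ngly1 was not called with equal read totals (−0.12). Irf1 and Nlrc5, which act in the interferon response and on MHC class I genes, were not called by limma (0.30 and 0.34) or DESeq2 (0.28 and 0.34), but edgeR (0.33 and 0.39) and limma voom (0.34 and 0.38) called both higher, as did upper-quartile scaling and equal read totals.

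Of 10 genes that load peptides onto MHC class I, 4 were called lower and 4 higher, beside 33.0% and 33.5% of all genes, with a median log2 fold change of −0.37. This split depended on the scaling. With equal read totals none was called lower in limma and 6 higher (median 0.36), against 11.1% and 66.7% of all genes. With quantile normalization none was lower and 7 higher (median 0.66), against 37.6% and 30.4% of all genes. The peptide-loading factor Tapbp rose most, from 1696, 1939 and 1748 normalized counts to 3701, 3461 and 3801 (log2 fold change 1.03, SE 0.09, limma adjusted p = 2.88e-05). The chaperone Calr fell most, at −0.98 (limma adjusted p = 0.000764, and −0.26 with equal read totals), but it was at 0.11 with quantile normalization. The peptide transporters Tap1 (0.59) and Tap2 (0.47), neighbours of Psmb8 and Psmb9 picked after their values were seen, were called higher with them. Among the cell type markers, Serpina1a fell most of those of hepatocytes (−3.07), Cd14 rose most (4.87) and Cd163 fell most (−3.04) of those of macrophages, of which 12 of 15 were called higher, against 33.5% of all genes, and 13 of 15 with equal read totals, against 66.7%. Of 15 lymphocyte markers, 11 passed the filter and 9 were called higher, but 5 of these (Cd8a, Cd3d, Cd3e, Cd2 and Nkg7) lay under 20 normalized counts in every WT liver and passed only through the Vps15LKO livers, so the count supports nothing. Cd8a had 2.65, 2.50 and 5.39 normalized counts in WT and 64.9, 58.3 and 58.0 in Vps15LKO livers.

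Promoter windows of 300 bases (250 before to 50 after the annotated start) were found for 42 members, as 45 windows. The TGACNNNGC core was present in 6 of the 45, 13.3%, beside 12.4% of all 32851 promoter windows, and in 4 of 27 windows of constitutive subunits. The CCAAT box, a common promoter element, was present in 15 (33.3%, beside 37.4% of all windows), AANNGAAA in 13 (28.9% beside 23.9%) and CACGTG in 4 (8.89% beside 7.15%), those of Psma4, Psmb10, Psmd9 and Psme3. The shares of the members thus lay near those of all genes for each motif. These 4 genes with CACGTG included 3 called lower and Psmb10, called higher, and with equal read totals Psma4 and Psme3 turned to positive values. The Psmb5 window shown above holds its match 47 bases before the start, that of Psmd8 36 bases before, that of Psmb10 116 bases before and that of Psmd6 152 bases before. AANNGAAA was in none of the 3 immunoproteasome windows, which says only that these letters are not in this stretch.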

How the data were processed

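The authors cleaned the reads (SOAPnuke), aligned them to GRCm38 (HISAT2), assigned them to genes (featureCounts) and normalized with DESeq2. Versions and the strand setting are not given in the sources used here. The deposited values are a signal, the reads of a gene over the size factor of its library. In each library 100% of them were whole multiples of 1 read, within 0.01 read, so whole reads were recovered. Libraries were grouped by the genotype in their labels. Symbols, positions and exon lengths come from GENCODE M21 (55141 genes matched) and promoters from RefSeq.

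log2(normalized count + 1) was tested with limma 3.58.1 (trend) under R 4.3.3, and p-values were adjusted by Benjamini-Hochberg across the 15430 genes that passed the filter. On simulated data of 14272 genes, changes of 1.5, 2 and 4-fold were recovered in 29.9% of 67, 89.6% of 67 and 100% of 66 genes, with 4 false calls. Ratios were tested by an exact permutation test. On the recovered reads, edgeR 4.0.16 called 10205 genes beside 10262 by limma.

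Values are given per liver for Psmb5 to Psmb10, Psme1 and Psme2, and in every other role for the called member with the largest rise and fall. Psmb2, Psmd14 and Psmg4 are shown outside this rule, picked with their values known. From each other list the called genes with the largest rise and fall are named. Members and lists were chosen with earlier results of these data known, and no list was given a test of its own. No replicate was a copy of another (chi-square per gene between 14.0 and 36.4). Alternatives were other pseudocounts, filters, scalings, tools and thresholds, a replicate block and each replicate left out.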

Additional observations from a re-analysis of the deposited data

How the results depend on the processing

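Of the alternatives tried, equal read totals changed the calls or directions of most members. The counts of 33 members called lower and 6 higher became 0 and 29 with equal read totals, against 11.1% and 66.7% of all genes. Psmd6 was lower there at a limma adjusted p of 0.0491, short of the fold threshold. With quantile normalization 17 members were called lower (37.6% of all genes), and 12 at a fold of at least 1.5 (23.1% of all genes). Of the genes in the 5 pathway lists, 22 were called lower and 10 higher (33.0% and 33.5% of all genes). With equal read totals these were 1 and 31 (11.1% and 66.7% of all genes), and with quantile normalization 9 and 20 (37.6% and 30.4%). At a fold of at least 1.5, 12 were lower (23.1%). With at least 20 normalized counts required in all 6 livers, 13 macrophage and lymphocyte markers were called higher, against 21, and fewer genes were tested.

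With equal read totals these log2 fold changes turned positive: Psma1 0.39, Psma2 0.37, Psma3 0.12, Psma4 0.0093, Psma5 0.26, Psma6 0.10, Psma7 0.32, Psmb1 0.10, Psmb2 0.51, Psmb3 0.32, Psmb4 0.36, Psmb5 0.70, Psmb6 0.21, Psmc1 0.18, Psmc2 0.10, Psmc3 0.19, Psmc4 0.33, Psmc5 0.30, Psmc3ip 0.16, Psmd1 0.17, Psmd2 0.37, Psmd3 0.11, Psmd4 0.30, Psmd7 0.37, Psmd11 0.30, Psmd13 0.27, Psmd14 0.61, Psme3 0.41, Psmg1 0.17, Psmg2 0.40, Psmg3 0.24, Nploc4 0.0277, Pik3r4 0.19, Pomp 0.0792, Nfe2l1 0.43, Mir686 0.65, Nek6 0.54, Gm26938 0.0141, Fam98c 0.0876, Rasgrp4 0.51 and 1110035H17Rik 0.41. The change of scaling itself moved all genes by a like amount. With quantile normalization Psmb2 turned to 0.0742, Psmb5 to 0.19, Psmd2 to 0.12, Psmd11 to 0.0148, Psme3 to 0.0142, Psme2b to −0.0161, Calr to 0.11, Nfe2l1 to 0.15 and Nek6 to 0.23, and the cause was not tested. With upper-quartile scaling, which moved the median of all genes by 0.12, 27 members were called lower (Psma1, Psma2, Psmb4, Psmd2, Psmd7 and Psme3 lost their calls), Psmb5 was at 0.10, Psmd14 at 0.0104 and Mir686 at 0.0465. Psmb5 was at 0.0181 with TMM scaling and with edgeR, and at 0.0215 with limma voom.

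Leaving out 1 library at a time, the log2 fold change of Psmb5 ranged from −0.0739 to 0.063, of Psme2 from −0.0288 to 0.12, of Psmf1 from −0.0276 to 0.0453, of Psmd5 from −0.0364 to 0.10 and of Mir686 from −0.14 to 0.0028, none of them called in the full comparison. Without Vps15LKO replicate 1, 28 members were called lower. Psmg2 was called lower without WT replicate 2. Other pseudocounts, the wider filter, limma without a trend and DESeq2 changed no member's direction or call. Same-numbered livers did not deviate together (correlations −0.01, −0.01 and 0.05), so the numbers were not taken to pair mice. With the replicate block 33 members were called lower and 6 higher. The simulated data held few changed genes, while 10262 were called here. Their recovery of 1.5-fold changes, 29.9%, thus does not measure the power of this comparison. The absence of a call still does not show equal levels.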
